A study of Mus musculus with 6 samples.

Results

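The 26 genes described here encode 20 enzymes of cholesterol synthesis, 5 regulators of the sterol-sensing SREBP pathway and the sterol carrier STARD4. They were chosen by gene symbol, as rows of the deposited count files, from 40213 genes in all, and each of the 26 symbols was found. Counts came from RNA-seq libraries of macrophages grown for 4 days from C57BL/6 mouse bone marrow in medium with macrophage colony-stimulating factor at 25 ng/ml and 10% fetal bovine serum. The 3 control samples received nothing further. The 3 treated samples were exposed for 24 h to 50 µg of polystyrene micro- and nanoplastics (MNP), in a culture volume that the labels leave out. Nothing in the labels tells if the replicates came from different mice or dishes, so p-values cover the spread between these 6 libraries alone, which may be technical. Library totals ran from 20262859 to 23042146 counts. Genes with a count numbered 24062, 20935 and 20222 in controls 1 to 3. MNP samples 1 to 3 had fewer, at 18672, 18655 and 18240. The members had 56 to 5810 counts each per library, far above the floor of 3 counts.

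Cholesterol is built in the endoplasmic reticulum from acetyl-CoA by way of mevalonate, isoprenoid diphosphates, squalene and lanosterol. The transcription factors SREBP-1 and SREBP-2 (genes Srebf1 and Srebf2) are made as membrane precursors. SCAP carries them to the Golgi for cleavage when membrane sterol is low, and INSIG proteins hold SCAP back when sterol is plentiful. Macrophages take up much of their cholesterol from lipoproteins and engulfed material, and synthesis is one of several sources.

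Cleaved SREBP acts at sterol genes together with the factors NF-Y and Sp1, so the stretches before the start sites of 5 members are shown here with matches to their motifs. Hmgcs1, Idi1, Cyp51 and Insig1 rose after MNP treatment, and Insig2, which did not pass the test, is the paralog of Insig1. The 250 bases before the start site are from RefSeq on build GRCm38.p6, read 5′ to 3′ on the gene's strand. Capitals mark TCACNCCAC (a form of the sterol regulatory element), the NF-Y box CCAAT and the Sp1 box GGGCGG, each on either strand. The regions are chr13:119690101-119690350 (plus strand) for Hmgcs1, chr13:8885356-8885605 (plus strand) for Idi1, chr5:4104698-4104947 (minus strand) for Cyp51, chr5:28071162-28071411 (plus strand) for Insig1 and chr1:121332590-121332839 (minus strand) for the start site of Insig2 that lies farthest upstream of its 3.
Hmgcs1: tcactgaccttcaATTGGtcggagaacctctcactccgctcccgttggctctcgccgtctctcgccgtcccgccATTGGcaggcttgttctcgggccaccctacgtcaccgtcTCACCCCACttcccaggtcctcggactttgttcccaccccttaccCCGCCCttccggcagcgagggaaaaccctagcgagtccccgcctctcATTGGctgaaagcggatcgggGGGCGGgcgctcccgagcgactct
Idi1: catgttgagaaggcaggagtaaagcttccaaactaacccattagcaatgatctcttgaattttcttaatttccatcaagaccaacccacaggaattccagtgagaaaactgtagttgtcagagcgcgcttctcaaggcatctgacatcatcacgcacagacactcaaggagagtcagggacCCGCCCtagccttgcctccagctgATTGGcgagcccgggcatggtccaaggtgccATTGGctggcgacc
Cyp51: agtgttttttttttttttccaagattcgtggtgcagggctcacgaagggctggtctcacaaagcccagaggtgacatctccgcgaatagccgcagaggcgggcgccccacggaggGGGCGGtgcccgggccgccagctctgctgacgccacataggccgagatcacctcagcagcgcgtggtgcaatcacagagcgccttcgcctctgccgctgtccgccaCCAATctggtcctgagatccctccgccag
Insig1: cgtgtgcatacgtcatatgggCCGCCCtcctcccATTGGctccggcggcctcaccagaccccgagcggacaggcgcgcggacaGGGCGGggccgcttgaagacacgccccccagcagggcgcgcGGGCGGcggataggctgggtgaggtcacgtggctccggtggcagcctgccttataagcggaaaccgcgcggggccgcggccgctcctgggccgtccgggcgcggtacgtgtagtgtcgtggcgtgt
Insig2: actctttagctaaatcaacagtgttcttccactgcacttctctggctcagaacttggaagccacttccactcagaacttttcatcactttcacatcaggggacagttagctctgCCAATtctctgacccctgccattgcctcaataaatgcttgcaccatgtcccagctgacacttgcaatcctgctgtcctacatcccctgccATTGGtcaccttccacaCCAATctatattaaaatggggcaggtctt

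Of the 26 members, 22 had a promoter window of 250 bases before to 50 after the start site in that RefSeq set. They had 30 windows, since some genes have several start sites, and some of their windows overlap. Fdps, Fdft1, Sqle and Stard4, which all rose, had no window and were not searched. The box CCAAT was present in 21 of the 30 windows (70%), against 37.4% of all 32851 windows and 38% of windows of genes tested here. All 13 members with a window that rose held it in at least 1 window, as did 7 of the 9 that did not pass the test. GGGCGG was present in 80% of member windows, against 35.7% of all windows and 60.1% of windows of tested genes. The sterol element TCACNCCAC was found in 1 member window, in Hmgcs1 at 137 bases before the start site as TCACCCCAC, and in 1.24% of all windows (TCACCCCAC itself in 0.551%). The E-box CACGTG was in 20% of member windows, against 7.15% of all windows and 10% of windows of tested genes. The antioxidant response element core TGANNNNGC was in 63.3%, against 41.3% and 43.1%. By gene, it was held by 9 of the 13 members that rose and 7 of the 9 that did not pass. For GGGCGG these numbers were 12 and 8, and for CACGTG 4 and 1. Both strands were searched, TCACCCCAC is one form of TCACNCCAC, and a match describes letters only. No other form of the sterol element was searched for, so whether the other windows hold one was not tested.

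After MNP treatment, 17 of the 26 members rose and 0 fell, and the rises were small and ran from 1.16-fold for Stard4 to 1.43-fold for Sqle. Genes were tested with edgeR's quasi-likelihood test, called at a Benjamini-Hochberg adjusted p under 0.05 over all 12893 tested genes, and all 26 members were among those tested. No member was lower at an unadjusted p under 0.05 (0 of 26, with 19 higher), and DESeq2 and limma-voom each called 17 higher and 0 lower. Over all tested genes 17.5% were called, 9.11% higher and 8.35% lower. Values are CPM, that is counts brought to one library size with TMM factors, and a mean ± SD is over the 3 samples of a group. Fold changes are log2 values, MNP minus control, with their standard error (SE). The median log2 fold change was 0.28 over the members and -0.01 over all tested genes. For 21 members the upper end of the 95% interval lay below a 1.5-fold rise. In bulk RNA, more cells of a type and more RNA per cell cannot be told apart.

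The 17 members that rose were also the 17 whose MNP values all lay above every control value, while the groups overlapped for the other 9. Over all tested genes 34.6% had groups that did not overlap, and 17.2% had MNP above control. The median of the members, as log2 of the value over the control mean, was 0.06, -0.05 and 0.03 in controls 1 to 3 and 0.26, 0.32 and 0.28 in MNP samples 1 to 3. Control 2 was the lowest control for 15 members, and MNP sample 2 was the highest treated sample for 14. The members together took 0.187%, 0.178% and 0.185% of all counts in controls 1 to 3 and 0.204%, 0.224% and 0.214% in MNP samples 1 to 3, so their share of the unscaled counts was larger in each MNP library.

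The number of calls depended on scaling and on single libraries. It was 8 with library totals alone in place of TMM factors, a scaling under which 28.1% of all called genes were higher, against 52.2% with TMM factors. TMM factors were 1.03, 1.04 and 1.02 in controls 1 to 3 and 0.973, 0.978 and 0.958 in MNP samples 1 to 3. The number of calls was 9 without control 2, 8 without MNP sample 2 and 11 without MNP sample 3. No member was called lower in any of the 15 alternatives run, and Hmgcs1, Sqle, Cyp51, Msmo1, Sc5d, Insig1 and Srebf1 were called higher in all 15.

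**Figure D1:**
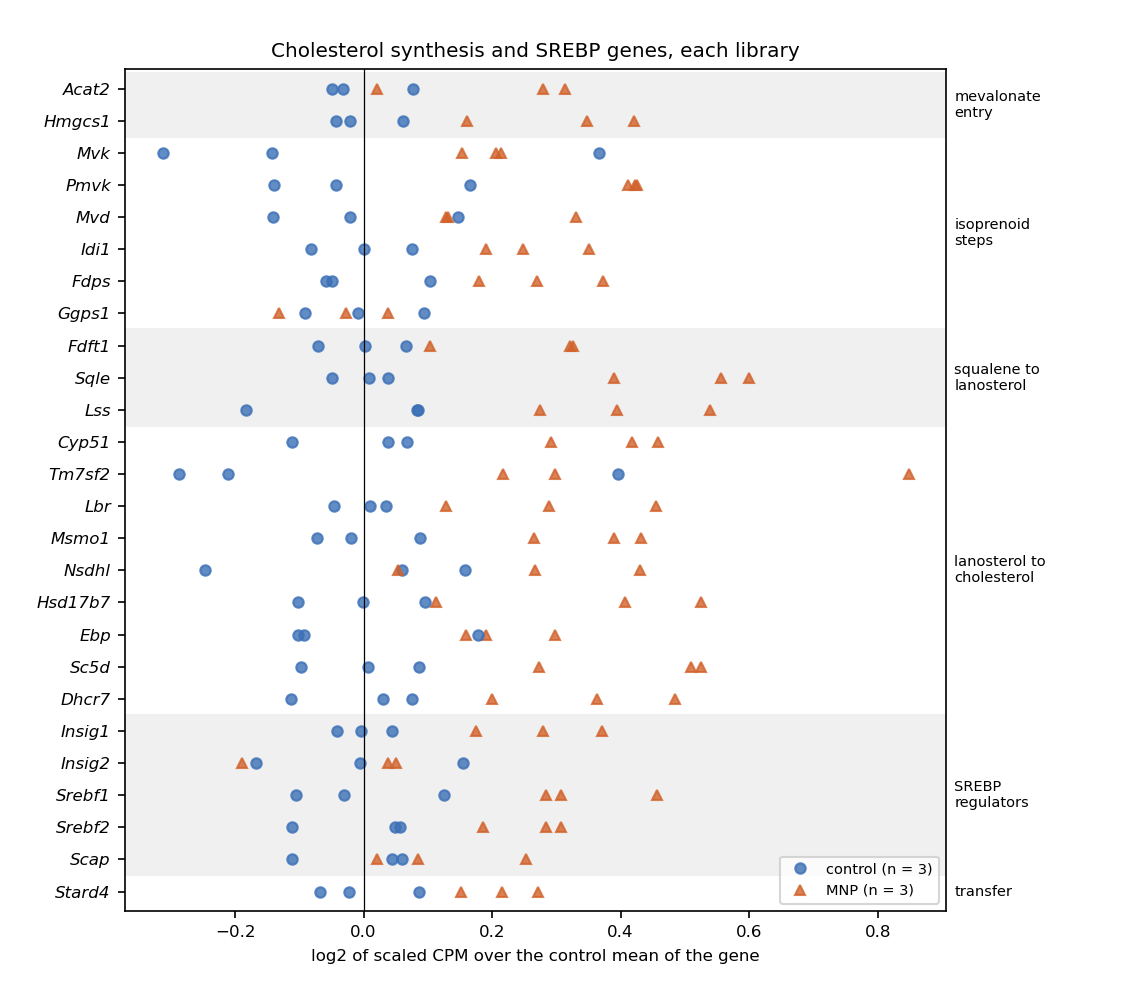
Scaled CPM of each member in each library, as log2 over the control mean of that gene, with genes in pathway order from top to bottom. Circles are the 3 control libraries and triangles the 3 MNP libraries. The groups do not overlap for 17 genes, whereas for Ggps1 and Insig2 the MNP points lie on both sides of the control mean.

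The pathway begins with ACAT2, the cytosolic thiolase that joins acetyl units, and HMGCS1, the synthase that makes HMG-CoA. Hmgcs1 had 154, 166 and 156 CPM in the controls and 177, 213 and 202 CPM in the MNP samples. Every MNP sample was higher than every control, a rise of 1.24-fold (log2 0.31 ± 0.07 SE, edgeR adjusted p = 0.00606). Acat2 had 21.5, 19.96 and 19.7 CPM in the controls and 20.7, 25.3 and 24.8 CPM in the MNP samples, with MNP sample 1 inside the control range, and did not pass (log2 0.21 ± 0.10, edgeR adjusted p = 0.177).

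Of the 6 genes that turn mevalonate into isoprenoid diphosphates, 3 rose. Idi1, the isomerase that interconverts the isoprenoid building blocks, had 168, 159 and 150.1 CPM in the controls and 181, 203 and 189 CPM in the MNP samples (log2 0.27 ± 0.06, edgeR adjusted p = 0.00955). Fdps, which makes farnesyl diphosphate, had 136, 122 and 123 CPM in the controls and 144, 153 and 164 CPM in the MNP samples (log2 0.28 ± 0.07, edgeR adjusted p = 0.0106). Both genes were higher in each MNP sample than in any control. Pmvk, the phosphomevalonate kinase, had 12.3, 10.7 and 9.97 CPM in the controls and 14.6, 14.7 and 14.7 CPM in the MNP samples. Its 1.34-fold rise (log2 0.42 ± 0.11, edgeR adjusted p = 0.0207) came with close agreement among the MNP samples, and its call was lost without any one of 5 libraries, all but control 1.

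The other 3 isoprenoid genes did not pass. Mvk, the mevalonate kinase, had 7.58 ± 1.94 CPM in controls and 8.66 ± 0.197 CPM in MNP samples, and its control values of 6.11 to 9.78 CPM spanned all 3 MNP values. Mvd, the decarboxylase that yields isopentenyl diphosphate, had 21.3 ± 2.15 and 24.5 ± 2.01 CPM (edgeR adjusted p = 0.207). Ggps1 makes geranylgeranyl diphosphate, the lipid that anchors many small GTPases to membranes, and so stands on a side branch away from sterols. It had 33.5, 35.5 and 38.1 CPM in the controls and 32.6, 36.7 and 35.0 CPM in the MNP samples, with a log2 fold change of -0.04 and a 95% interval from -0.22 to 0.14.

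All 3 genes from farnesyl diphosphate to lanosterol rose. Sqle encodes squalene epoxidase, the first oxygen-requiring step and a known control point of the pathway. It had 97.9, 94.1 and 99.9 CPM in the controls and 127, 143 and 147 CPM in the MNP samples. That was the largest rise among the 17 called members (1.43-fold, log2 0.52 ± 0.06, 95% interval 0.38 to 0.66, edgeR adjusted p = 7.69e-05). Lss, the cyclase that forms lanosterol, had 30.7, 37.0 and 36.9 CPM in the controls and 45.9, 50.7 and 42.2 CPM in the MNP samples (1.33-fold, log2 0.41 ± 0.09, edgeR adjusted p = 0.0093). Fdft1, squalene synthase, had 46.3, 42.2 and 44.4 CPM in the controls and 47.6, 55.3 and 55.5 CPM in the MNP samples, so that MNP sample 1 stood just above the controls. Its rise of log2 0.25 ± 0.08 passed narrowly (edgeR adjusted p = 0.0447).

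The 9 genes from lanosterol to cholesterol all had positive fold changes, and 6 of them rose. Cyp51, the demethylase that acts on lanosterol, had 169.6, 153 and 173 CPM in the controls and 202, 221 and 227 CPM in the MNP samples (1.31-fold, log2 0.39 ± 0.07, edgeR adjusted p = 0.00093). Msmo1, the sterol C4-methyl oxidase, had 197, 190.1 and 213 CPM in the controls and 240.4, 262 and 269.8 CPM in the MNP samples (log2 0.36 ± 0.06, edgeR adjusted p = 0.00128). Sc5d, the desaturase near the end of the pathway, had 102, 94.7 and 108 CPM in the controls and 123, 146 and 144 CPM in the MNP samples (1.36-fold, log2 0.44 ± 0.07, edgeR adjusted p = 0.000995). In each of these 3 genes the lowest MNP value was MNP sample 1, and it was still above the highest control. Dhcr7, the reductase that turns 7-dehydrocholesterol into cholesterol, went from 22.1 ± 1.48 to 28.2 ± 2.76 CPM (1.28-fold, edgeR adjusted p = 0.0228). Hsd17b7, a sterol 3-keto reductase, went from 28.7 ± 1.96 to 36.7 ± 5.23 CPM (1.28-fold, edgeR adjusted p = 0.0316), with MNP sample 1 at 31.0 CPM against a highest control of 30.6 CPM.

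The sterol C14 reductase step has a pair of genes, Lbr, whose product is also the lamin B receptor of the nuclear envelope, and Tm7sf2. Lbr went from 43.9 ± 1.26 to 53.9 ± 6.09 CPM (1.23-fold, log2 0.30 ± 0.09, edgeR adjusted p = 0.0287). Tm7sf2 was the member with the lowest level, at 2.68, 4.09 and 2.54 CPM in the controls and 3.82, 3.61 and 5.59 CPM in the MNP samples. Its fold change of log2 0.48 did not pass (SE 0.26, edgeR adjusted p = 0.232). The groups overlapped, and the 95% interval ran from -0.07 to 1.03. The ratio of Lbr to Tm7sf2 counts was 14.8 ± 3.89 in controls and 12.9 ± 3.56 in MNP samples (exact permutation test, two-sided p = 0.6, n = 3 against 3, smallest possible p 0.1).

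Nsdhl, the C4 decarboxylase, and Ebp, the sterol isomerase of a later step, did not pass either. Nsdhl had 33.0 ± 4.67 CPM in controls and 39.5 ± 5.12 CPM in MNP samples, and control 3, at 36.9 CPM, exceeded MNP sample 1, at 34.3 CPM. Ebp had 28.6 ± 3.25 and 33.2 ± 1.69 CPM, and control 3, at 32.3 CPM, exceeded MNP sample 3, at 31.9 CPM. The unadjusted p of both was under 0.05 (0.0428 and 0.0379) and the edgeR adjusted p was 0.151 and 0.139.

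**Figure D2:**
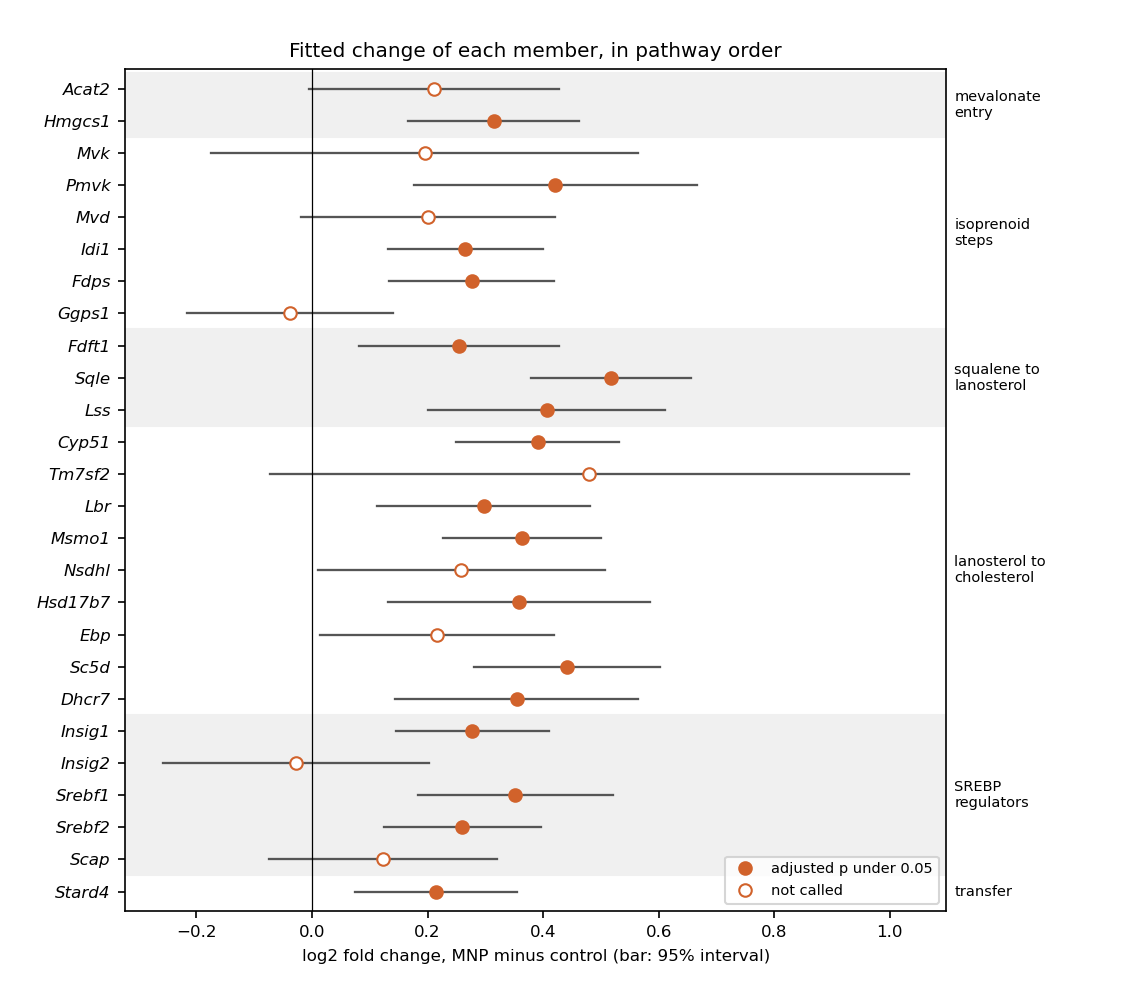
Fitted log2 fold change of each member, MNP minus control, with its 95% interval as a bar, in pathway order. Filled points are the 17 members called at an adjusted p under 0.05. Sqle at 0.52 is the largest of these, and Tm7sf2 has the widest interval, from -0.07 to 1.03.

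Among the SREBP regulators, both transcription factor genes and Insig1 rose. Srebf1, the gene of SREBP-1, had 61.7, 55.4 and 52.6 CPM in the controls and 77.7, 70.0 and 68.9 CPM in the MNP samples (1.28-fold, log2 0.35 ± 0.08, edgeR adjusted p = 0.00653). Srebf2, whose product favours sterol genes, had 112, 99.6 and 111 CPM in the controls and 131, 133 and 122 CPM in the MNP samples (log2 0.26 ± 0.06, edgeR adjusted p = 0.0115). Neither gene had an MNP value inside the control range. The ratio of Srebf1 to Srebf2 counts was 0.527 ± 0.047 in controls and 0.56 ± 0.0334 in MNP samples. Its log2 difference was 0.09 (exact permutation test, two-sided p = 0.4, n = 3 against 3, smallest possible p 0.1). Scap, the SREBP escort and sterol sensor, had 26.3 ± 1.69 and 28.6 ± 2.41 CPM and did not pass (log2 0.12 ± 0.09, 95% interval -0.08 to 0.32, edgeR adjusted p = 0.402).

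Of the INSIG pair, Insig1 passed the test and Insig2 did not. Insig1, which retains the SCAP complex and is itself an SREBP target, had 145, 141 and 149.7 CPM in the controls and 176, 188 and 164 CPM in the MNP samples (1.21-fold, log2 0.28 ± 0.06, edgeR adjusted p = 0.00646). Insig2 performs the same retention but is not induced by SREBP in the same way. It had 25.2, 20.1 and 22.5 CPM in the controls and 23.2, 23.4 and 19.8 CPM in the MNP samples, so the groups overlapped (log2 -0.03 ± 0.11, 95% interval -0.26 to 0.20, edgeR adjusted p = 0.89). The ratio of Insig1 to Insig2 counts, in which library scaling cancels, was 5.76, 7.004 and 6.65 in the controls and 7.59, 8.03 and 8.26 in the MNP samples. The ratio was higher in every MNP sample than in any control, a log2 difference of 0.30 (exact permutation test, two-sided p = 0.1, n = 3 against 3, the smallest p this design allows). It was 1 of 5 such ratios computed, and the Benjamini-Hochberg p of its permutation test over the 5 was 0.5. With a smallest p of 0.1, this test cannot decide for any of the 5 ratios whether the groups differed. The other ratios were the Srebf1 and Lbr ratios given here, Hmgcs1 to Srebf2 (permutation p = 1) and Sqle to Lss (permutation p = 0.5). The Insig2 stretch shown above, from its upstream start site, holds 3 CCAAT boxes and no GGGCGG, and that of Insig1 holds 1 CCAAT and 3 GGGCGG. The other 2 Insig2 windows each hold 1 GGGCGG and no CCAAT. Which Insig2 start site these cells use was not tested.

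Stard4 encodes a soluble carrier that moves cholesterol between membranes. It had 81.5, 75.6 and 73.3 CPM in the controls and 85.3, 92.7 and 89.2 CPM in the MNP samples. This was the smallest rise among called members (1.16-fold, log2 0.21 ± 0.06, edgeR adjusted p = 0.0362).

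The calls were also set against the level of the members. When the 26 were ordered by mean CPM over all 6 libraries, all 13 in the upper part (48.6 to 229 CPM) rose, and 4 of the 13 in the lower part (3.72 to 40.6 CPM) rose, namely Pmvk, Lss, Hsd17b7 and Dhcr7. The SE of the log2 fold change was 0.06 to 0.11 for called members and 0.08 to 0.26 for the others. Dhcr7 passed at a control mean of 22.1 CPM. Ggps1 did not at 35.7 CPM, where its log2 fold change was -0.04. Log2 fold changes of the members not called ran from -0.04 for Ggps1 to 0.48 for Tm7sf2. The part of level in the calls was not tested.

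Levels can be compared between genes only per length, so the scaled CPM was divided by the annotated exon length in kilobases (GENCODE M21, all 26 matched by symbol). On this scale the highest control mean levels were those of Insig1 (46.9 CPM per kilobase), Idi1 (45.3), Cyp51 (37.4), Hmgcs1 (34.6), Msmo1 (32.6) and Fdps (30.2). The lowest were those of Tm7sf2 (0.705 CPM per kilobase), Mvk (2.84), Lss (3.23), Scap (3.53) and Dhcr7 (3.79). The exon length counts every annotated exon, so a gene with many alternative exons, such as Lss at 10787 bases, is placed too low.

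**Figure D3:**
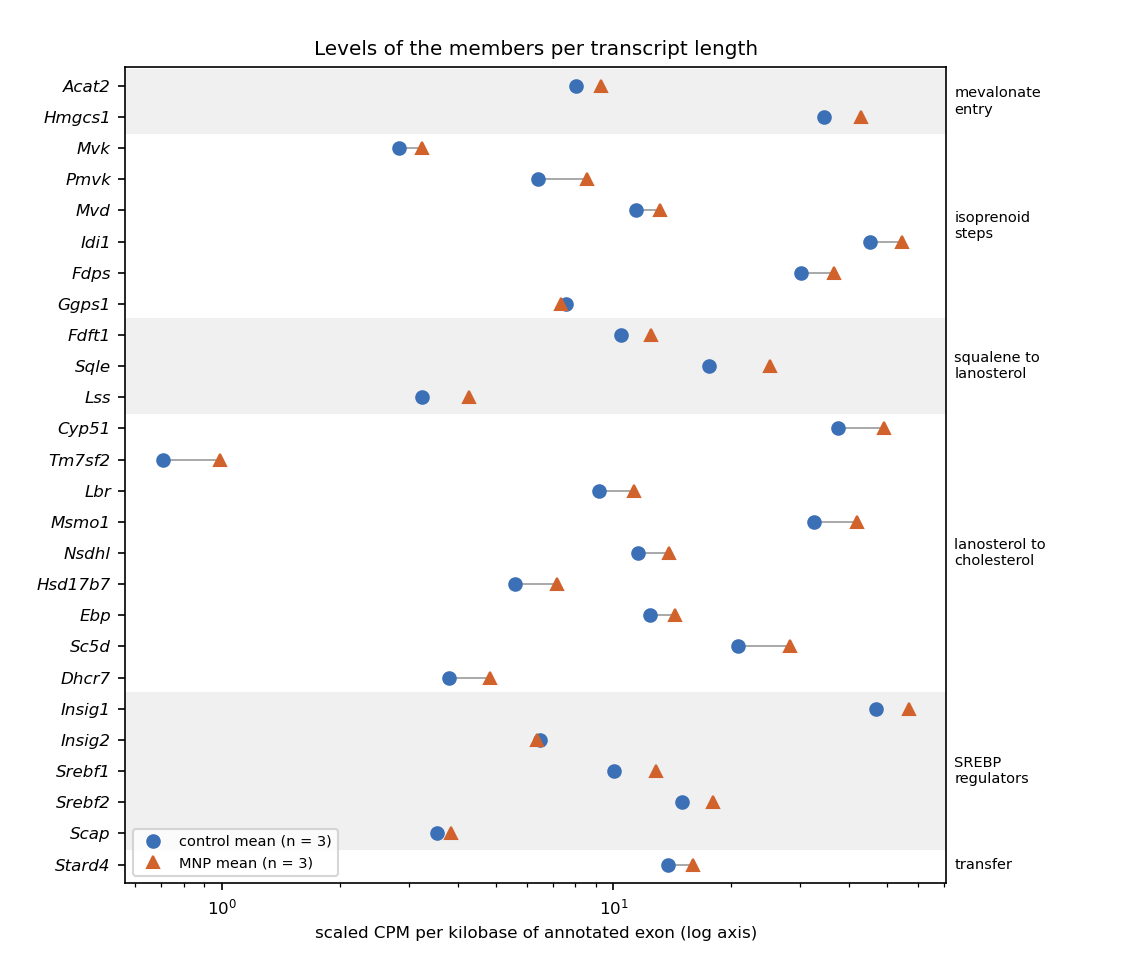
Mean level of each member per kilobase of annotated exon on a log axis, for control (circles) and MNP (triangles) samples, n = 3 each. Control levels span from 0.705 for Tm7sf2 to 46.9 for Insig1, and the shift between the groups is small beside the differences between genes.

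Genes around these members were read from 6 lists. The first holds SREBP proteases, coat proteins, cofactors and the machinery that degrades sterol enzymes in the endoplasmic reticulum. Of its 22 tested genes 6 rose and 0 fell, with a median log2 fold change of 0.08 against -0.01 over all tested genes, and the count was 3 without MNP sample 3 and 4 without control 2. At an unadjusted p under 0.05, 7 of its genes were higher and 2 lower, and DESeq2 called 6 and 1, limma-voom 6 and 0. With library totals alone 4 were called higher and 3 lower. Vcp, the ATPase that pulls proteins from the membrane for degradation, had 312, 315 and 312 CPM in the controls and 429, 421 and 429 CPM in the MNP samples (log2 0.44 ± 0.05, edgeR adjusted p = 3.48e-05). Nfya, a subunit of NF-Y, went from 106 ± 1.52 to 134 ± 5.78 CPM (1.27-fold, edgeR adjusted p = 0.000723). Sec24d, a coat protein of vesicles that leave the endoplasmic reticulum, rose 1.30-fold, and Nploc4, a Vcp partner, rose 1.21-fold. The SREBP proteases did not pass, with Mbtps1 at 57.6 ± 3.88 and 52.6 ± 0.974 CPM (edgeR adjusted p = 0.247) and Mbtps2 at 70.1 ± 3.68 and 78.5 ± 2.36 CPM (edgeR adjusted p = 0.104).

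The list of other SREBP targets, most of them fatty acid genes, had 17 tested genes, of which 9 rose and 1 fell. Its median log2 fold change was 0.29, and the largest values in it lay well above those of the sterol genes. Acss2, which makes acetyl-CoA from acetate, had 4.55, 4.96 and 5.51 CPM in the controls and 19.4, 20.2 and 17.8 CPM in the MNP samples (3.82-fold, log2 1.93 ± 0.12, edgeR adjusted p = 1.45e-07). The desaturase Fads2 had 45.8, 44.3 and 41.8 CPM in the controls and 90.6, 91.7 and 92.0 CPM in the MNP samples (log2 1.06 ± 0.06, edgeR adjusted p = 1.04e-07). Me1, the NADPH-forming malic enzyme and also a known NRF2 target, rose by log2 2.39 ± 0.13, and Scd2, a stearoyl-CoA desaturase, by log2 0.98 ± 0.06. Lpin1, a phosphatidate phosphatase, was the 1 gene that fell, from 63.5 ± 5.27 to 47.3 ± 2.36 CPM (edgeR adjusted p = 0.00184). Pnpla3 of this list was not tested because its counts were too low.

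Of 15 tested genes of the non-sterol isoprenoid branches, which make dolichol, ubiquinone side chains and protein prenyl groups, 0 rose and 1 fell, with a median log2 fold change of 0.01 (unadjusted p under 0.05: 2 higher and 1 lower, and DESeq2 and limma-voom 0 higher and 1 lower). That gene was Pggt1b, a subunit of geranylgeranyl transferase (67.1 ± 4.69 to 50.6 ± 0.593 CPM, log2 -0.41 ± 0.07, edgeR adjusted p = 0.00127). Of 15 tested genes of cholesterol transport and storage, 2 rose and 0 fell, with a median of -0.02 (unadjusted p under 0.05: 3 higher and 1 lower, also the split that DESeq2 and limma-voom each called). With library totals alone the split turned, to 1 higher and 3 lower. The 2 genes that rose were Lipa, the lysosomal lipase that frees cholesterol from its esters (2006 ± 72.6 to 3301 ± 191 CPM, 1.65-fold, edgeR adjusted p = 2.08e-06), and Vapa, a membrane-contact protein of the endoplasmic reticulum (174 ± 14.7 to 209 ± 11.3 CPM). This count was 4 without control 1 and 1 without MNP sample 2 or MNP sample 3. Of the 9 oxysterol and bile acid enzymes 3 were tested, and 1 of them rose and 1 fell. Cyp27a1, the sterol 27-hydroxylase, fell from 20.2 ± 0.944 to 10.7 ± 0.823 CPM (log2 -0.92 ± 0.10, edgeR adjusted p = 3.25e-05), and Hsd3b7, a sterol dehydrogenase, rose 1.69-fold.

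The list of ketone enzymes and thiolases relates to the same early metabolites. Of its 5 tested genes 1 rose and 1 fell, with a median log2 fold change of -0.08. Oxct1, which uses ketone bodies, fell from 407 ± 11.4 to 317 ± 10.7 CPM (edgeR adjusted p = 0.000418), and Bdh1, a hydroxybutyrate dehydrogenase, rose from 1.82 ± 0.0418 to 3.23 ± 0.47 CPM (edgeR adjusted p = 0.039). The number called in this list went from 2 to 1 when any 1 of the 6 libraries was left out.

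**Figure D4:**
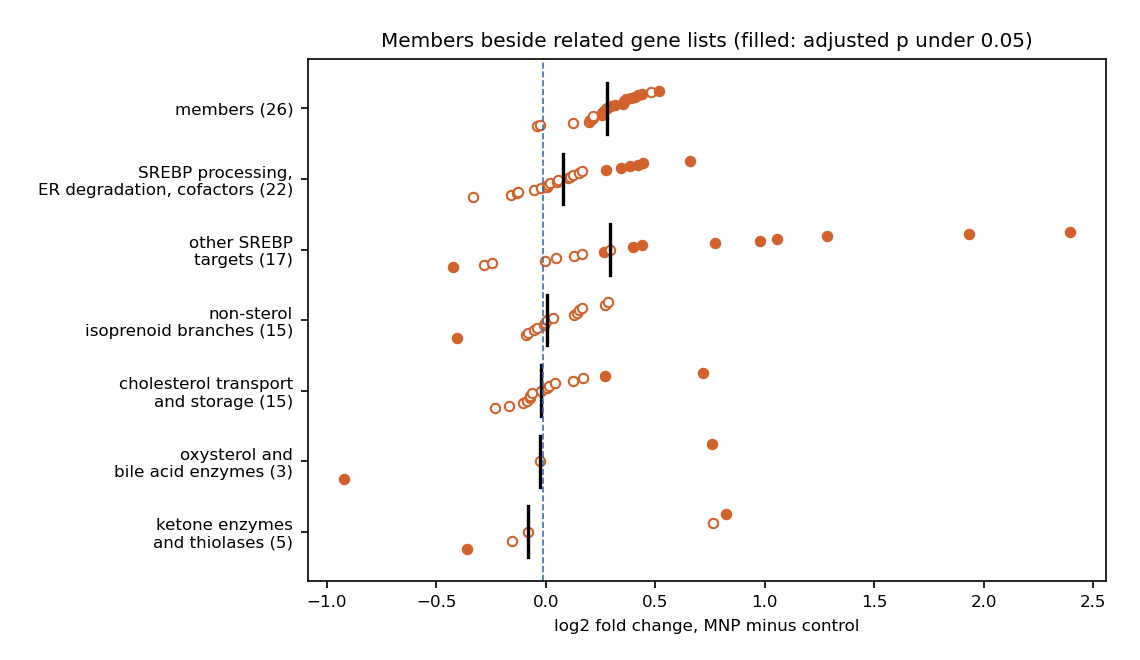
Log2 fold changes, MNP minus control, of the tested genes of each list, 1 point per gene, with the number tested in parentheses and filled points for an adjusted p under 0.05. Black bars are list medians, 0.28 for the members and 0.29 for other SREBP targets, and the dashed line is the median of all tested genes, -0.01.

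Markers of the labelled cell type were present. All 10 macrophage markers had counts in every library, with Lyz2 the highest (14779 CPM mean in controls), Aif1 the lowest (43.7 CPM), and a summed level of 19137 to 19835 CPM in controls and 17018 to 18041 CPM in MNP samples. Of these 10, 5 fell. Markers of other cells also differed between the groups. Of 9 tested neutrophil markers 5 fell (summed level of the 10 listed, 185 to 274 CPM in controls and 135 to 154 CPM in MNP samples), and of 6 tested dendritic cell markers 2 fell (8 listed, 7.46 to 10.6 and 3.39 to 6.09 CPM). S100a9 was the highest of the neutrophil markers (105.7 ± 18.6 to 58.8 ± 6.54 CPM) and Ly6g the lowest, at 0 to 2 counts per library. None of the 7 lymphoid markers in the files had a count in all libraries, and Cd3e and Ncr1 were at 0 in each of the 6 (summed level 0.0848 to 0.956 CPM in controls and 0 to 0.338 CPM in MNP samples). Mast cell, basophil and eosinophil markers summed to 11.1 to 14.6 CPM in controls and 18.03 to 20.3 CPM in MNP samples. Most of that sum was Kit, which rose from 9.90 ± 1.48 to 16.8 ± 1.82 CPM (edgeR adjusted p = 0.0012), and Prg2, the other tested gene of the 7 listed, did not pass. Summed levels were, for erythroid and megakaryocyte markers, 17.5 to 25.2 CPM in controls and 12.1 to 14.3 CPM in MNP samples, and for stromal and endothelial markers 2.88 to 4.79 and 2.49 to 4.11 CPM. The part of these shifts in the rise of the members was not tested.

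Some members share exon sequence with other genes in the GENCODE M21 annotation, and the strand setting of the counts is not given in the sources used here. Exons of 7 members overlap a gene that is also in the files. The largest such overlap is that of Fdft1, with 18.3% of its exon bases on the strand opposite Ctsb, the cathepsin B gene. Ctsb had 147163 to 182296 counts per library, against 967 to 1227 for Fdft1, and did not pass the test (log2 -0.06 ± 0.05, edgeR adjusted p = 0.471). Tm7sf2 shares 12.1% of its exon bases with Vps51 on the same strand. The counts of Fdft1 and Tm7sf2 are therefore less certain than those of the other 5 of the 7. Overlaps of those 5 with genes in the files each cover under 10% of exon bases. Genes absent from the files share 26.7% of the exon bases of Fdps, on the same strand. They share 13.2% of those of Scap and 12.1% of those of Hmgcs1, on the opposite strand. Whether reads of these genes were counted for the members was not tested.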

How the data were processed

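RNA-seq libraries of 6 samples were prepared with a CORALL V2 kit, per the labels' protocols. The authors deposited raw counts by gene symbol, in whole numbers and with a file for each library. The tools fastp, STAR, Salmon, GATK and the mouse build GRCm39 are listed, per the submitters' processing notes, with no role or version. What annotation and strand setting were used, and whether molecular identifiers were counted, is not given in the sources used here. Groups came from sample titles.

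Counts were filtered with the default expression filter of edgeR 4.0.16 in R 4.3.3, which left 12893 of 40213 genes, scaled by TMM factors and tested with the quasi-likelihood F test, MNP against control. Benjamini-Hochberg adjustment ran over all tested genes. The SE was the size of the log2 fold change divided by the root of F, and 95% intervals used the moderated degrees of freedom. The members, gene lists and motifs were chosen with earlier results of these data known, so the lists are described by counts and medians, with no set test. From each pathway list, up to 4 called genes with the smallest p are named. From the macrophage and neutrophil marker lists, the genes of highest and lowest level are named. Mbtps1, Mbtps2, Lpin1, Pnpla3, Ctsb, Vps51, Cd3e, Ncr1, Kit and Prg2 are named outside these rules, with their values known.

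One count was worth 0.0424 to 0.0483 scaled CPM. Within groups, chi-square per degree of freedom between replicates was 6.65 to 17.6, and no 2 libraries agreed within sampling noise. The steps were checked on simulated counts, where recovery was required only for changes larger than those of the called members. Alternatives were RLE and upper-quartile factors, library totals alone, no filter, a stricter filter (over 1 CPM in at least 3 samples), DESeq2 1.42.0, limma-voom (limma 3.58.1), a replicate block, an adjusted p under 0.01, and leaving out each library. Exon lengths and overlaps came from GENCODE M21, and promoter windows from RefSeq on GRCm38.p6, an older build than the one named for the counts, both matched by symbol.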

Additional observations from a re-analysis of the deposited data

How the results depend on the processing

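The 17 member calls were the same 17 genes with RLE or upper-quartile factors, the stricter filter, DESeq2, limma-voom and the replicate block, and no filter added Nsdhl. With library totals alone 8 members were called, and 9 at an adjusted p under 0.01. Leaving out 1 library gave 8 to 16 member calls. The call of Pmvk was lost without any of 5 libraries, and those of Fdft1, Hsd17b7 and Stard4 without any of 4. The members' median log2 fold change was 0.19 with library totals alone, 0.31 with no filter and 0.25 to 0.33 when a library was left out, and it stayed positive in every setting run. Over all genes 2250 were called, 1272 at an adjusted p under 0.01 and 1471 to 2245 without 1 library. With no filter the median of all genes moved by -0.15, to -0.16, but it then covered 28815 genes in place of 12893. With library totals alone the median of all genes moved by -0.088, to -0.099, beside the members' 0.19.

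Values near 0 changed sign. With 1 library left out Ggps1 ran from -0.075 to 0.018 and was above 0 without control 3 or MNP sample 1. Insig2 ran from -0.10 to 0.061, above 0 without control 1 or MNP sample 3, and was 0.0061 with no filter. Neither was called in any setting. In the SREBP processing list 7 genes were called with library totals alone (4 higher, 3 lower), and 3 genes were called at an adjusted p under 0.01 and 3 to 7 without 1 library. In the non-sterol branch list 2 were called with no filter and 1 to 2 without 1 library. In the transport and storage list 4 were called with library totals alone (1 higher, 3 lower) and 4 with DESeq2 or limma-voom (3 higher, 1 lower), 1 at an adjusted p under 0.01, and 1 to 4 without 1 library. In the ketone list 1 was called with library totals alone, at an adjusted p under 0.01 and without any 1 library. The cause of these changes was not tested.

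The replicate numbers are shared between the groups, but same-numbered samples deviated together only weakly (correlations of 0.087, 0.028 and -0.022), so they were not treated as pairs. With the replicate block 17 members, 2686 genes in all, 2 genes of the non-sterol branch list and 4 of the transport list were called. The member with the fewest counts, Tm7sf2, had 56 to 117 per library and the largest SE, 0.26.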
